A study of Mus musculus with 6 samples.

Results

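Cxcl13 encodes the chemokine CXCL13, and Cxcr5 encodes its receptor. These 2 genes, of 19449 in a single-cell count table and 55351 in a bulk count table, are described here in spinal cord leukocytes of young and middle-aged mice. Cxcl13 was selected on its measured values, because its level in microglia was higher in the older recipients on both days of sampling. Cxcr5 was added as its receptor. The differences of Cxcl13 by age in the single cells are therefore given as a description. Of 38057 cells, 122 held 1 or more unique molecular identifiers (UMIs, each a tag for 1 captured RNA molecule) of Cxcl13 and 546 held Cxcr5.

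CXCL13 draws B cells into the follicles of lymph nodes and spleen, where it is made mainly by follicular stromal cells, follicular dendritic cells among them. CXCR5 is carried by mature B cells and by follicular helper T cells, and it lets both enter the follicle. CXCL13 is also known from inflamed tissue outside lymphoid organs, including the central nervous system in multiple sclerosis and in its mouse model, experimental autoimmune encephalomyelitis (EAE). Microglia, the resident macrophages of the brain and spinal cord, are among the cells from which chemokines are released there.

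All recipients were C57BL/6 mice that received CD4+ T cells from young donors. The donor cells were primed against the myelin peptide MOG35-55 and cultured under Th17-polarizing conditions. Young recipients were 8 to 12 weeks old and middle-aged recipients 40 to 44 weeks old, and spinal cords were taken on day 6 or day 10 after transfer. Each of the 4 single-cell libraries (young and middle-aged, day 6 and day 10) pooled the CD45+ cells of 4 spinal cords, so 1 library stands for each age and day. Another 2 libraries held bulk RNA of microglia from naive spinal cords, 1 young and 1 middle-aged, with no treatment. The mice were of both sexes in the study, and the labels do not give the sex of a library.

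With 1 library per group there was no test between groups. Levels are given as CPM, which is counts scaled to a library total of 1000000, of the UMIs summed over a cluster in a library. A difference is the log2 ratio of 2 such levels, and its bracketed 95% interval, exact binomial, covers counting error only. A share of cells has an exact binomial interval, also 95%. UMIs of 1 cell are not independent, so these intervals are too narrow for a difference between mice. The median depth of a library was between 4704.5 and 6196 UMIs per cell. Pairs of libraries shared between 13 and 36 cell barcodes, which took in 308 cells in all and 1 cell with Cxcl13.

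Cells are grouped by the numbered clusters that the authors deposited. Clusters 8 and 10 held the microglial genes. The summed level of 10 microglia markers, among them Tmem119 and P2ry12, was 6517 to 10534 CPM in cluster 10 and 2692 to 6239 CPM in cluster 8 over the 4 libraries. In cluster 8 on day 10, markers of monocytes or macrophages were above the microglia list, at 7710 CPM in the young and 6152 CPM in the middle-aged library. On day 6 the same monocyte list was at 668 and 1493 CPM. Its gene Chil3 alone was at 4822 and 3825 CPM on day 10, most of those sums, against 78.3 and 475 CPM on day 6. Ly6c2 was also higher on day 10, at 645 and 508 against 78.3 and 135 CPM. Plac8 was lower on day 10, at 209 and 166 against 336 and 596 CPM, and Ccr2 was at 37.1 and 21.6 CPM. Cluster 8 thus held cells with few microglial genes beside microglia, and 54.6% of its cells without Cxcl13 held 3 or more of the 10 microglia genes. In cluster 10 that share was 98.0%.

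Cxcl13 was found almost entirely in the microglial clusters. Clusters 8 and 10 together held 472 of 523 Cxcl13 UMIs (90.2%) and 93 of the 122 holding cells, in 3401 cells. Cluster 8 had the higher level over all libraries, 36.5 CPM (32.2 to 41.3) and 23.0 CPM without its top cell, with 53 of 2057 cells holding the gene. Cluster 10 was at 17.3 CPM (15.1 to 19.8) and 14.4 CPM without its top cell, with 40 of 1344 cells holding the gene. Cluster 1, a monocyte/macrophage-like cluster, was at 0.366 CPM, with 16 of 9645 cells. No cell held both Cxcl13 and Cxcr5.

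The other clusters set the background. In the neutrophil-like clusters 0, 3 and 6, 6 of 11137 cells held a Cxcl13 UMI, a share of 0.0539% (0.0198 to 0.117) at a median depth of 2375 UMIs. In clusters 8 and 10 the share was 2.73% (2.21 to 3.34) at a median of 4376 UMIs, above that background. The share in cluster 1, 0.166% (0.0948 to 0.269), was also above the point estimate in neutrophil-like cells, but at a median depth of 9106 UMIs, and the intervals overlapped. In the B cell-like cluster 4, 0 of 1360 cells held Cxcl13, which allows a share of up to 0.271% by the exact interval. Clusters 11, 12, 13 and 15 had 0 UMIs as well. These clusters were formed on the same cells, so the contrast between clusters is a description.

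**Figure D1:**
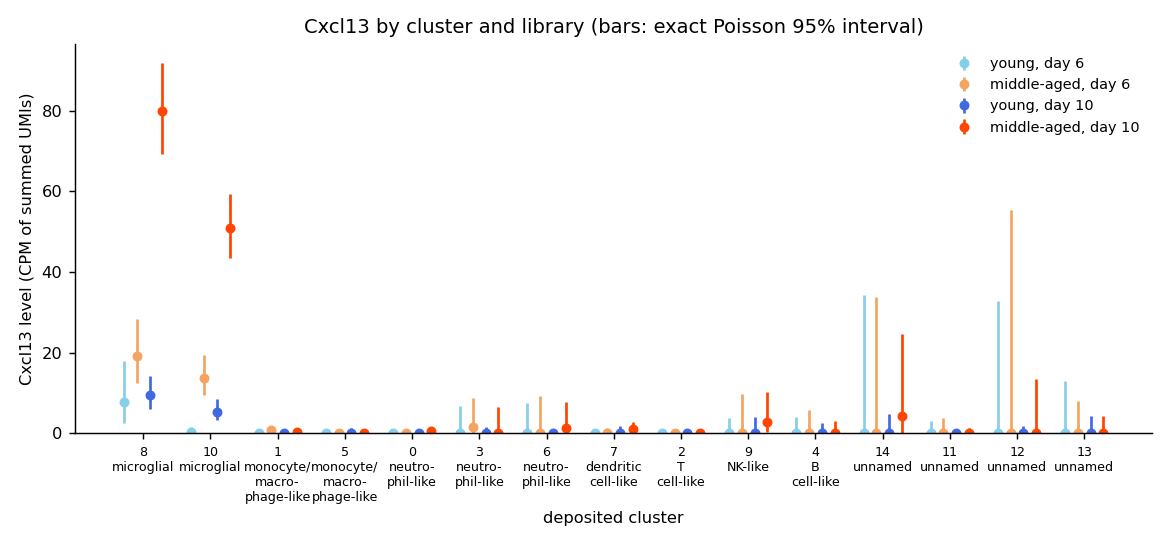
Level of Cxcl13 in CPM (vertical axis) in each deposited cluster (horizontal axis) and library (colour). Points are summed levels with exact Poisson 95% intervals, which cover counting error only. The middle-aged day 10 library is highest in clusters 8 and 10, at 80.05 and 51.0 CPM, and wide intervals in clusters 12 and 14 come from few cells. Cluster 15, with 59 cells and 0 UMIs, is not drawn.

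Cluster 10 held Cxcl13 in every library, but in the young day 6 library with 1 UMI only. On day 6 the young library had that 1 UMI in 1 of 432 cells, a level of 0.291 CPM. The middle-aged day 6 library had 33 UMIs in 7 of 216 cells, 13.8 CPM. On day 10 the young library had 19 UMIs in 6 of 362 cells, 5.41 CPM.

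The middle-aged day 10 library had by far the most Cxcl13 of cluster 10, with 165 UMIs in 26 of 334 cells, 51.0 CPM. Divided by the young level, and on the log2 scale, the middle-aged level was at 5.57 (2.99 to 10.92) on day 6, where it rests on the single young UMI, and 3.24 (2.55 to 4.01) on day 10. Between days the level was higher on day 10 in both ages, with a log2 ratio of 1.88 (1.33 to 2.47) in middle-aged and 4.22 (1.56 to 9.59) in young mice.

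The share of cluster 10 cells with Cxcl13 followed the same order of libraries. It was 0.231% (0.00586 to 1.28) in young and 3.24% (1.31 to 6.56) in middle-aged mice on day 6. On day 10 it was 1.66% (0.611 to 3.57) in young and 7.78% (5.15 to 11.2) in middle-aged mice. The interval of the young day 6 share overlapped that of the neutrophil-like background. Median depths were 6931, 10000, 8674 and 8394 UMIs for young and middle-aged on day 6 and young and middle-aged on day 10.

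Thinning every cell to 2000 UMIs, to make depths equal, lowered all 4 shares of cluster 10. Then 0 of 411 young cells, which allows a share of up to 0.894% by the exact interval, and 1.40% of 214 middle-aged cells held the gene on day 6. On day 10, 0.570% of 351 young and 4.24% (2.34 to 7.02) of 330 middle-aged cells did. Shallower cells were left out, 21 and 2 on day 6 and 11 and 4 on day 10. The order of the libraries did not change.

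In cluster 8, as in cluster 10, the level of the middle-aged day 10 library stood apart. Cluster 8 differed from cluster 10 in that the intervals of the other 3 overlapped. The young day 6 library had 5 UMIs in 4 of 249 cells, 7.68 CPM. The middle-aged day 6 library had 25 UMIs in 10 of 364 cells, 19.2 CPM. The young day 10 library had 24 UMIs in 8 of 668 cells, 9.58 CPM.

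The middle-aged day 10 library of cluster 8 had 200 UMIs in 31 of 776 cells, 80.05 CPM. The log2 ratio by age was 3.06 (2.45 to 3.74) on day 10. On day 6 it was 1.32 with an interval that spanned 0 (-0.088 to 3.07), so at this depth a difference by age was not shown. From day 6 to day 10 the level was higher in middle-aged mice (2.06, 1.45 to 2.72), and in young mice the interval spanned 0 (0.32, -1.10 to 2.07).

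Shares in cluster 8 were 1.61% and 2.75% in young and middle-aged mice on day 6, and 1.20% and 3.99% on day 10. After thinning to 2000 UMIs they were 0% of 132 cells (exact interval up to 2.76%), 2.56% of 234, 1.02% of 490 and 4.23% of 473. Thinning left out 117, 130, 178 and 303 cells in the same order, since the median depth of this cluster was 2059 to 3070 UMIs. Cluster 8 was above cluster 10 in the middle-aged day 10 library (log2 ratio 0.65, 0.35 to 0.96). There 1 cell held 94 of the 200 UMIs of cluster 8. Without the top cell of each cluster, cluster 8 stood at 42.6 CPM and cluster 10 at 39.8 CPM, a much smaller difference. In the young day 6 library the ratio was 4.72 (1.56 to 10.29), from 5 UMIs against 1, and the intervals of the middle-aged day 6 and young day 10 libraries spanned 0.

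Other cell types moved beside these differences. The neutrophil markers in cluster 8 were at 6981 and 10293 CPM on day 6 and at 8802 and 3577 CPM on day 10, young before middle-aged. In cluster 10 they were at 4509, 1304, 5913 and 3672 CPM in the same order. Restricting the clusters to cells with 3 or more of the 10 microglia genes, a choice made after seeing the data, left ratios by age of 5.59 and 3.20 in cluster 10 and 1.10 and 3.03 in cluster 8 (day 6 and day 10). The interval in cluster 8 on day 6 spanned 0 there too (-0.36 to 2.87).

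Cxcl13 was uneven among cells, and 1 cell held much of each library's sum. The cell with the most Cxcl13 of all was in cluster 8 of the middle-aged day 10 library, with 94 of 200 UMIs (47.0%). Without it that library stood at 42.6 CPM, and leaving out the top cell of each library gave a log2 ratio of 3.15 on day 10. In cluster 10 the top 3 cells of the middle-aged day 10 library held 37, 23 and 16 UMIs, and without the first the level was 39.8 CPM. In the young day 10 library 1 cell held 11 of 19 UMIs (57.9%) in cluster 10 and another held 12 of 24 in cluster 8. Leaving out the top cell of each library in cluster 10 moved the day 10 log2 ratio from 3.24 to 4.12, with 8 young UMIs left.

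Most cells with 10 or more UMIs of Cxcl13 were in the middle-aged day 10 library, 6 of 8 in cluster 10 and 5 of 7 in cluster 8. In cluster 10 its holding cells averaged 6.35 UMIs, and 18 of 26 held 2 or more. Holding cells averaged 3.17 UMIs in young mice on day 10 and 4.71 in middle-aged mice on day 6. In cluster 8 they averaged 1.25 and 2.5 UMIs on day 6, young before middle-aged, against 3 and 6.45 UMIs on day 10. The last average rests on the cell with 94 UMIs and was 3.53 without it. Medians gave another order. In cluster 10 the middle-aged day 6 library was highest with a median of 4 UMIs, before 2 in the middle-aged day 10, 1.5 in the young day 10 and 1 in the young day 6 library. In cluster 8 the medians were 2 in the middle-aged and 1.5 in the young day 10 library and 1 in each day 6 library. A higher amount per holding cell in the middle-aged day 10 library is therefore not shown.

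**Figure D2:**
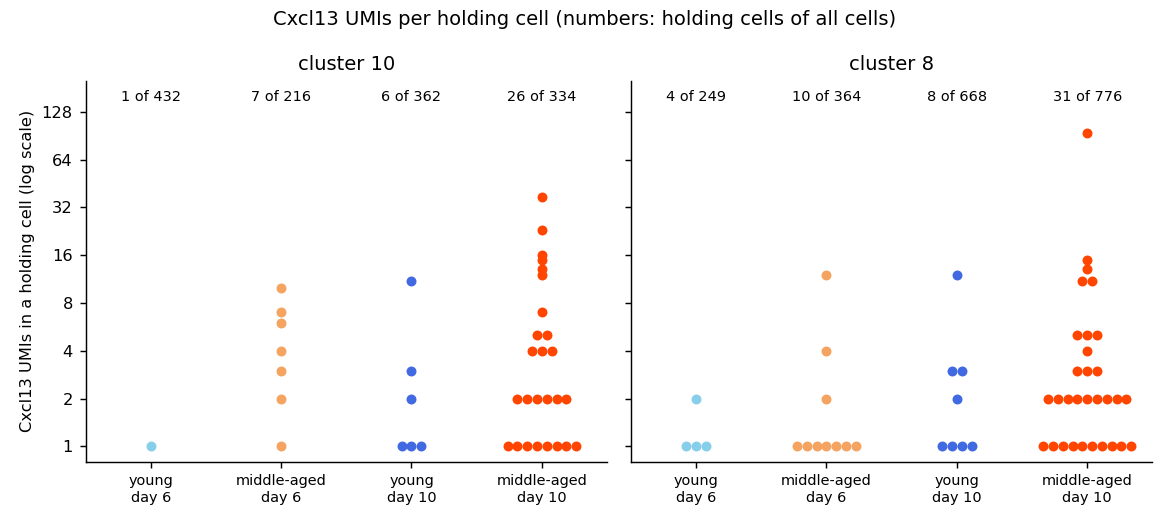
Cxcl13 UMIs of each holding cell (vertical axis, log scale) by library (horizontal axis) in clusters 10 and 8. Each point is 1 cell, and the numbers above give the holding cells of all cells. Cells with 10 or more UMIs numbered 6 and 5 in the middle-aged day 10 library, in clusters 10 and 8, and at most 1 in any other library.

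Summed over all cells, the young libraries held 11 UMIs on day 6 and 47 on day 10, and the middle-aged libraries 82 and 383. Levels were 0.192 and 0.673 CPM in young and 1.36 and 5.78 CPM in middle-aged mice. Log2 ratios by age were 2.82 (1.91 to 3.88) and 3.103 (2.66 to 3.57). Outside clusters 8 and 10, 29 of 34656 cells held 51 UMIs, a level of 0.218 CPM.

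Cells with Cxcl13 outside the microglial clusters often held microglial genes. Of these 29 cells, 12 (41.4%) held 3 or more of the 10 microglia genes, against 3.77% of the 34627 other cells of those clusters. Their median depth was 10377 UMIs against 5723, and a deeper cell holds more genes of any kind. In cluster 1 it was 8 of 16 cells against 10.7%, at 13849.5 against 9102 UMIs. Cluster 1 had 5 UMIs in the young and 22 in the middle-aged library on day 6, of which 16 were in 1 cell, and 1 and 7 UMIs on day 10.

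Within cluster 8 the Cxcl13 cells were richer in microglial genes than their neighbours. Of 53 holding cells, 44 (83.0%) held 3 or more of the 10 microglia genes, against 1095 of 2004 other cells (54.6%), at median depths of 3118 and 2602 UMIs. In the middle-aged day 10 library it was 26 of 31 against 379 of 745 cells. The microglia list there was at 5738 CPM in holding cells and 3158 CPM in the others, with 9 of 10 genes higher. Monocyte or macrophage markers were at 1198 against 6366 CPM, and neutrophil markers at 609 against 3705 CPM. Of the monocyte list, Chil3 alone was at 483 against 3970 CPM. In cluster 10, 39 of 40 holding cells had 3 or more microglia genes, and the others had them at 98.0%.

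B cell, endothelial and stromal transcripts were low in the Cxcl13 cells. In cluster 8 on day 10 the B cell markers were at 67.6 CPM in the middle-aged holding cells and 180 CPM in the others, and the endothelial and the fibroblast or follicular stromal markers were at 0 UMIs in the holding cells. In cluster 10 of the same library B cell markers were at 86.4 and 96.0 CPM, and stromal markers at 3.93 and 2.35 CPM. Genes of the known stromal sources of CXCL13 were thus at or near 0 in the cells that held it. The libraries were of CD45+ cells, a choice that leaves stromal and endothelial cells out, so low values were set by the design. Stromal Cxcl13 in the spinal cord was therefore not measured.

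In cluster 10, cells with Cxcl13 had more of the chemokine transcripts Cxcl10, Cxcl9 and Cxcl16 than cells without it. Only the middle-aged day 10 library had 10 or more holding cells there, 26 against 308 others. Of 686 genes with 50 or more UMIs in the holding cells, 4 were higher by 2-fold or more and 1 was lower by as much, with a median log2 ratio of 0.027. Cells are not replicates, and these ratios compare cells of 1 library.

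Cxcl10, an interferon-induced chemokine for activated T cells, had the largest ratio in cluster 10 when all its cells were compared. It was at 1324 CPM in holding and 537 CPM in other cells, a log2 ratio of 1.30 (1.13 to 1.47). Cxcl9, a ligand of the same receptor, followed at 0.90 (0.66 to 1.14), and Cxcl16, a membrane-bound chemokine, at 0.85. Fabp5, a fatty acid-binding protein, was at 0.97, the histone gene Hist1h2bc at 1.11, and Clec2d, a lectin-like receptor ligand, at 0.76. Without cells of mixed lineage, those that also carried marker UMIs of another cell type, Cxcl10 was at 1.07, under Fabp5 (2.004), Hist1h2bc (1.99), Spp1 (1.51) and Anxa5 (1.34). The list of other chemokines as a whole was lower in the holding cells, at 9921 against 13446 CPM, with 5 genes higher and 15 lower of 21.

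A further 4 of the 10 genes highest in these cells lost their direction when cells were thinned to 2000 UMIs. They were the apolipoprotein gene Apoc2 (1.13, and -0.60 thinned), the lysozyme gene Lyz2 (1.02, and -0.52), the annexin gene Anxa5 (0.83, and -1.93) and Spp1, osteopontin (0.72, and -1.39). Thinning left 14 holding cells. The genes lowest in holding cells were S100a9, a neutrophil calcium-binding protein, at 295 against 1729 CPM (-2.55), and Chil3 (-0.98), Ccl4 (-0.94), Fn1 (-0.82) and Neat1 (-0.82). Without cells of mixed lineage, a choice that removes cells by neutrophil markers among others, S100a9 was at -0.88.

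The list of disease-associated microglia genes, a programme of lipid metabolism and phagocytosis that includes Apoe, Spp1 and Fabp5, differed between the clusters. In cluster 10 its sum was 31154 CPM in holding and 20495 CPM in other middle-aged cells on day 10, with 11 of 11 genes higher. In cluster 8 it was 18131 against 30244 CPM, with 4 genes higher and 7 lower. Lyz2, which is not in this list, was at 1169 against 12965 CPM in cluster 8, where many other cells carried monocyte genes.

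In cluster 8 both middle-aged libraries had 10 or more holding cells, 10 on day 6 and 31 on day 10. Of 427 genes compared, 0 were 2-fold or more higher in both libraries and 3 were lower by that much in both, with a median log2 ratio of 0.071. Cxcl10 again led by the mean of both libraries, at 4022 against 2386 CPM on day 6 and 744 against 276 CPM on day 10. On day 6 alone its log2 ratio of 0.753 was just under those of Sparc (0.764) and Syngr1 (0.756). Cxcl9 was at 1376 against 836 CPM on day 6 and 1140 against 492 CPM on day 10. The mean log2 ratios of these chemokines were 1.09 and 0.97.

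The other genes high in these cells held members of the microglia list and genes induced by interferon. Genes of the microglia list were the matricellular protein gene Sparc (mean 0.98) and the fractalkine receptor gene Cx3cr1 (0.86). The interferon-induced genes were Isg15 (0.67) and Gbp2 (0.65), and Itgb5 (0.82), Sat1 (0.72), Syngr1 (0.70) and Anxa3 (0.69) completed it. The lowest were Wfdc17 (-2.32), S100a9 (-2.26), Chil3 (-2.12), Lyz2 (-1.91) and the cytokine gene Il1b (-1.84). Without cells of mixed lineage S100a9 was at -0.32. Wfdc17 and Lyz2 had intervals spanning 0 on day 6, and Cx3cr1 and Itgb5 likewise, as had Isg15 on day 10.

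**Figure D3:**
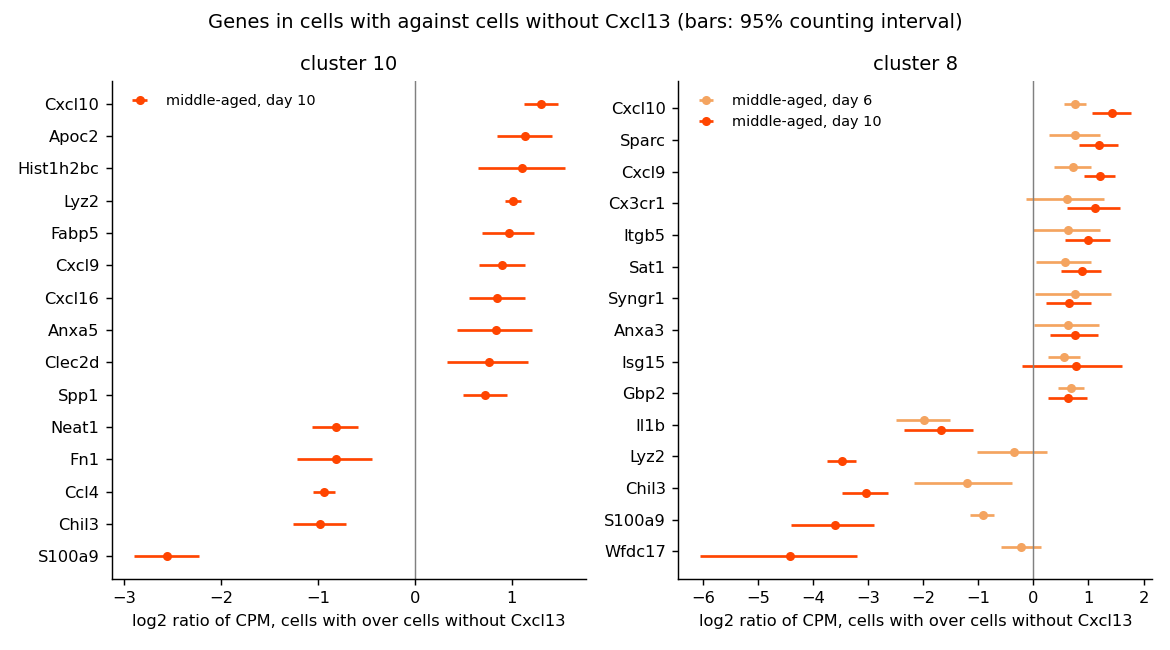
Log2 ratio of CPM in cells with over cells without Cxcl13 (horizontal axis) for the 10 highest and 5 lowest genes (vertical axis) in cluster 10 and cluster 8. Points are middle-aged libraries with 10 or more holding cells, and bars are 95% counting intervals. Cxcl10 has the highest ratio in cluster 10, at 1.30. In cluster 8 it has the highest mean, at 0.753 on day 6 and 1.43 on day 10. On day 6 Sparc (0.764) and Syngr1 (0.756) lie just above it there.

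Other genes of B cell recruitment were compared by age in the same clusters. A gene was counted where both libraries together had 100 or more UMIs, and called where the levels were at least 2-fold apart. In cluster 10 on day 6, 1.5% of 6668 genes were called higher and 1.42% lower in middle-aged mice. On day 10 it was 0.313% and 0.328% of 6712 genes. In cluster 8, 2.2% of 2413 genes were higher and 0.373% lower on day 6, and 0.172% and 0.589% of 4077 on day 10. The minimum passes genes through the library where they are high, and Cxcl13 itself passed it on day 10 only.

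Few lymphoid chemokines and receptors could be compared in the microglial clusters. Of 10 listed genes 8 were in the single-cell table, 1 passed the minimum on day 6 and 2 on day 10 in each cluster, and the called one was Cxcl13 on day 10, which was chosen for that difference. The other was Cxcr4, the receptor of CXCL12, with log2 ratios of -0.56 and 0.15 in cluster 10 and 0.43 and 0.46 in cluster 8, day 6 before day 10. Ccl19, a T cell zone chemokine, and Cxcl12 had 0 UMIs in both clusters in every library. Ccr7, the receptor of CCL19, and the scavenger receptors Ackr3 and Ackr4 were under the minimum.

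Oxysterols guide B cells through GPR183. Ch25h, which makes their precursor, was higher in middle-aged cluster 10 on day 6, at 191.8 against 85.8 CPM (1.16, 0.95 to 1.38), and at 46.4 against 44.7 CPM on day 10 (0.05). Gpr183 was at -0.82 and Hsd3b7, which degrades the ligand, at -0.002 on day 6. Of these 3 genes past the minimum, 1 was called higher on day 6 and 0 on day 10.

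Lymphotoxin and non-canonical NF-kB signalling is the pathway known to induce Cxcl13 in lymphoid stroma. In cluster 10, 7 of its 10 genes passed the minimum on each day and 0 were called. On day 6 Nfkb2 was at -0.42, Relb at 0.28 and Tnf at -0.19. Median log2 ratios of the list were -0.010 on day 6 and 0.092 on day 10, beside -0.043 and -0.004 for all genes. In cluster 8, 3 and 6 genes passed and 0 were called.

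Of the B cell survival factors and receptors, 2 of 8 passed on day 6 and 3 on day 10 in cluster 10, and 0 were called. Tnfsf13b, which encodes BAFF, was at 117 against 71.6 CPM on day 6 (0.71, 0.46 to 0.96) and at 69.9 against 82.2 CPM on day 10 (-0.24). Tnfrsf13b, a BAFF receptor, was at -0.13 on day 6. Genes of follicular helper T cells were sparse in microglia, as 3 of 11 passed the minimum on day 6 and 0 were called, with Bcl6 at -0.97, Pdcd1 at 0.57 and Maf at -0.50. Icos, Il21, Cd40lg, Sh2d1a, Tox2, Btla and Cd200 were under it.

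Other chemokines were compared beside the shares of all genes called, which in cluster 10 were also higher on day 6 than on day 10. In that cluster, 4 of 14 were called higher on day 6, Ccl24 (3.63), Ccl5 (1.37), Cxcl16 (1.30) and Cxcl10 (1.06), with a list median of 0.43. On day 10, 0 of 13 were called and the median was -0.071. In cluster 8 it was 3 higher and 1 lower of 13 on day 6 and 0 higher and 1 lower, Ccl17 (-2.02), on day 10.

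Cxcl10 shows the difference to Cxcl13 plainly. Its level in cluster 10 was 1037 and 2159 CPM in young and middle-aged mice on day 6 and 832 and 599 CPM on day 10, a log2 ratio of -0.47 (-0.56 to -0.39) on the later day. In cluster 8 it was 1.08 and -0.61. Cxcl10 was thus higher in the cells with Cxcl13, while on day 10 it was lower in the library with the most Cxcl13.

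Of the disease-associated microglia genes, 5 of 9 were called higher in cluster 10 on day 6 and 2 of 11 on day 10, with medians of 1.33 and 0.16. Among all genes past the minimum, 1.5% and 0.313% were called higher on these days, with medians of -0.043 and -0.004. Spp1 was at 1.67 and 1.13 on the 2 days, Fabp5 at 1.65 and -0.16, and Axl, a phagocytic receptor, at 1.56 and 0.16. Spp1 was thus higher by age on both days, as Cxcl13 was.

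**Figure D4:**
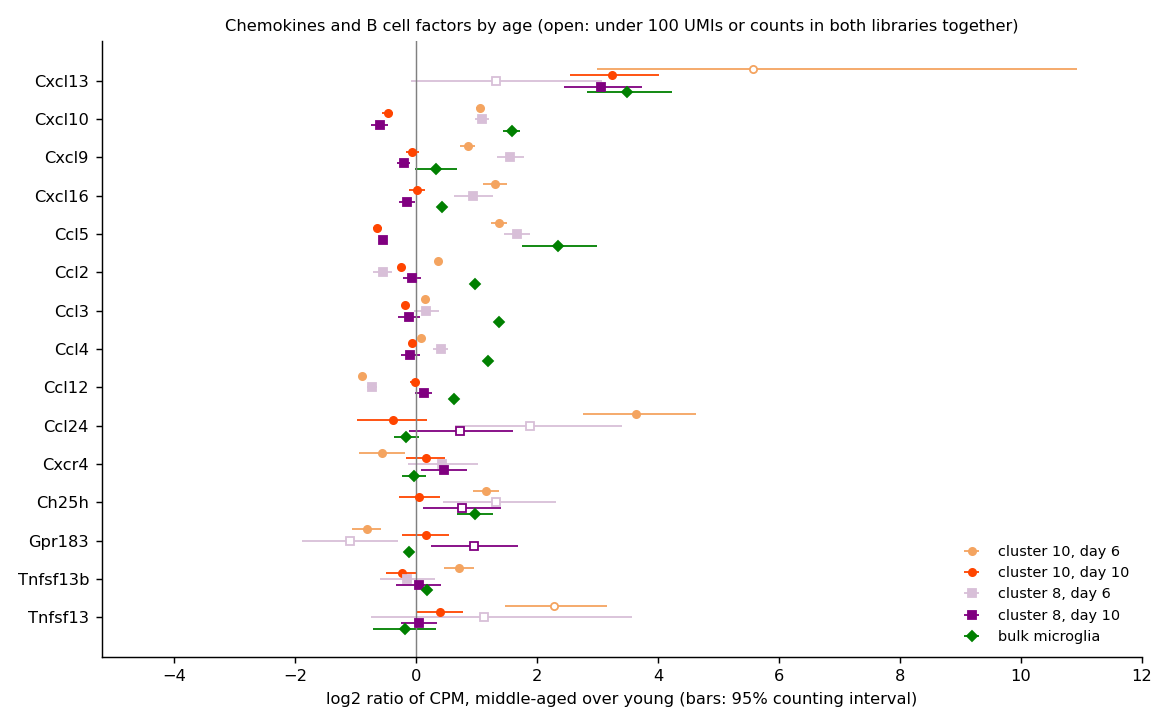
Log2 ratio of CPM, middle-aged over young (horizontal axis), for chemokines and B cell factors (vertical axis) in clusters 10 and 8 by day and in bulk microglia. Bars are 95% counting intervals, and open symbols mark genes under 100 UMIs or counts in both libraries together. Cxcl13, which was chosen for this difference in the single cells, lies right of 0 in all 5 comparisons. Its interval in cluster 8 on day 6 (-0.088 to 3.07) spans 0. Cxcl10 and Ccl5 lie left of 0 in both clusters on day 10.

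Naive microglia, measured as bulk RNA, had little Cxcl13 and more of it at the older age. The young library held 20 of 79373420 counts and the middle-aged library 216 of 76293436, or 0.252 and 2.83 CPM. The ratio was 11.2, a log2 ratio of 3.49 (2.83 to 4.23). Of 14821 genes with 100 or more counts, 1.16% were called higher and 6.92% lower in the middle-aged library. Cxcl13 passed that minimum through the middle-aged library, so its call is a description. Both libraries came from mice without transferred T cells. Each age had 1 library, and in bulk RNA fewer cells of a type and less RNA per cell cannot be told apart.

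Markers of other cells differed between the bulk libraries too. The microglia list was at 32034 and 30100 CPM in young and middle-aged mice. Endothelial markers were at 383 and 119 CPM, with 5 of 6 genes at least 2-fold lower, border-associated macrophage markers at 262 and 127 CPM, and fibroblast or follicular stromal markers at 15.4 and 5.31 CPM. All 3 of these lists were lower in the library with more Cxcl13. B cell markers were at 442 and 421 CPM, with 2 of 10 genes at least 2-fold higher and 2 lower. Neutrophil markers were at 686 and 822 CPM and monocyte markers at 180 and 75.7 CPM. Of the monocyte counts, Fn1 alone held 10884 of 14285 in the young and 2226 of 5772 in the middle-aged library. Of the 8 monocyte genes, 4 were higher in the middle-aged library, 2 of them at least 2-fold, and 1 was at least 2-fold lower. The part of these other cell types in the Cxcl13 count was not tested.

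Cxcr5 in bulk microglia was at 38 and 85 counts, a log2 ratio of 1.22 (0.65 to 1.81). The gene overlaps Bcl9l on chromosome 9 and the authors counted without strand, so reads of the pair cannot be told apart. Cxcl13, on the plus strand of chromosome 5 (positions 95956951 to 95961068 of GRCm38, 4 exons), overlaps no annotated gene. Cxcr5 lies on the minus strand (44511787 to 44561877).

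Of 10 lymphoid chemokine and receptor genes 6 passed 100 counts in bulk, 2 higher and 3 lower, beside 1.16% and 6.92% of all genes. The 2 higher were Cxcl13 and Cxcr5, the genes described here, so they are no result about the list. Those lower were Cxcl12 (1421 to 601 counts, -1.18), Ackr3 (-1.03) and Ackr4 (-1.09), and Cxcr4 was at -0.04. Ccr7 had 12 and 2 counts, Ccl19 2 and 0, and Ccl21a and Ccl21b 0. Cxcl12 is made by endothelial and stromal cells, whose markers were lower in the same library, and their part in its level was not tested.

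The other lists differed in called genes in bulk microglia, beside 1.16% of all genes called higher and 6.92% lower. Other chemokines had 5 of 16 higher and 0 lower, with Cxcl10 at 1.58 and Cxcl9 at 0.33. Disease-associated microglia genes had 2 of 11 higher and 0 lower, with a median of 0.51 beside -0.007 for all genes. Lymphotoxin and NF-kB genes had 1 of 7 higher (Tnf, 1.06), follicular helper genes 1 higher (Cxcr5 itself) and 1 lower (Cd200, -2.41) of 7, and oxysterol and B cell survival genes 0 of 3 and 0 of 5. Pdcd1 was at 0.72, Bcl6 at 0.12, Icos at 0.08, Tox2 at -0.30 and Maf at 0.02. Ch25h was at 0.97, near the 2-fold limit, and Tnfsf13b at 0.17.

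Cxcr5 had its highest level over all libraries in B cell-like cells, in another cluster than its ligand. The B cell-like cluster 4 held 271 of 644 UMIs (42.1%), at 65.2 CPM (57.7 to 73.4), in 215 of 1360 cells (15.8%). The unnamed cluster 14 was at 41.7 CPM (31.0 to 55.0), with 40 of 154 cells (26.0%), and the unnamed cluster 15 at 22.8 CPM (11.4 to 40.7), with 10 of 59 cells (16.9%). By share of cells both were above cluster 4, and in the young day 6 library cluster 14, with 17 cells, was also higher in level, at 111 against 79.5 CPM. The dendritic cell-like cluster 7 was at 5.86 CPM, with 70 of 1432 cells (4.89%). The T cell-like cluster 2 was at 1.69 CPM and the microglial clusters together at 0.666 CPM.

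In most clusters Cxcr5 was near its background. The neutrophil-like cluster 0, which should lack the gene, held it in 0.583% of cells (0.439 to 0.760) at a median depth of 2269 UMIs, and the T cell-like cluster in 0.922% (0.710 to 1.18) at 5317.5 UMIs. After thinning to 2000 UMIs these shares were 0.376% and 0.424%. On the CPM scale the order of these clusters differed by day. On day 6 cluster 0 was at 3.19 and 3.11 CPM and the T cell-like cluster at 1.55 and 1.89 CPM, young before middle-aged. On day 10 cluster 0 was at 1.09 and 0.522 CPM and the T cell-like cluster at 1.37 and 1.94 CPM. Expression in T cell-like cells was therefore not separated from background. The 63 T cell-like cells with Cxcr5 had B cell markers at 221 CPM, against 40.7 CPM in the others. Shares in clusters 4 and 7 were above both.

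The level of Cxcr5 in B cell-like cells did not follow age in the same way on both days. On day 6 the young library had 71 UMIs in 55 of 295 cells, 79.5 CPM (62.1 to 100.3), and the middle-aged library 28 UMIs in 22 of 184 cells, 45.0 CPM (29.9 to 65.0). On day 10 it was 84 UMIs in 73 of 543 cells, 57.4 CPM, in young and 88 UMIs in 65 of 338 cells, 74.7 CPM, in middle-aged mice. The log2 ratio was -0.82 (-1.51 to -0.17) on day 6 and 0.38 (-0.07 to 0.83) on day 10. With TMM scaling the first was -0.61 with an interval that reached 0 (-1.30 to 0.036).

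Plasma cell markers were higher in the middle-aged library of cluster 4 on both days, while the Cxcr5 ratio changed sign. In cluster 4 the plasma cell list was at 377 and 3750 CPM in young and middle-aged mice on day 6 and at 409 and 683 CPM on day 10. Over all libraries it was at 398 CPM in cells with Cxcr5 and 1108 CPM in those without. The part of these cells in the day 6 ratio was not tested. After thinning to 2000 UMIs, Cxcr5 was held by 13.5% and 7.41% of cells on day 6 and by 10.9% and 15.6% on day 10. B cell-like cells were 3.55% and 1.84% of all cells on day 6 and 5.52% and 3.42% on day 10, young before middle-aged.

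**Figure D5:**
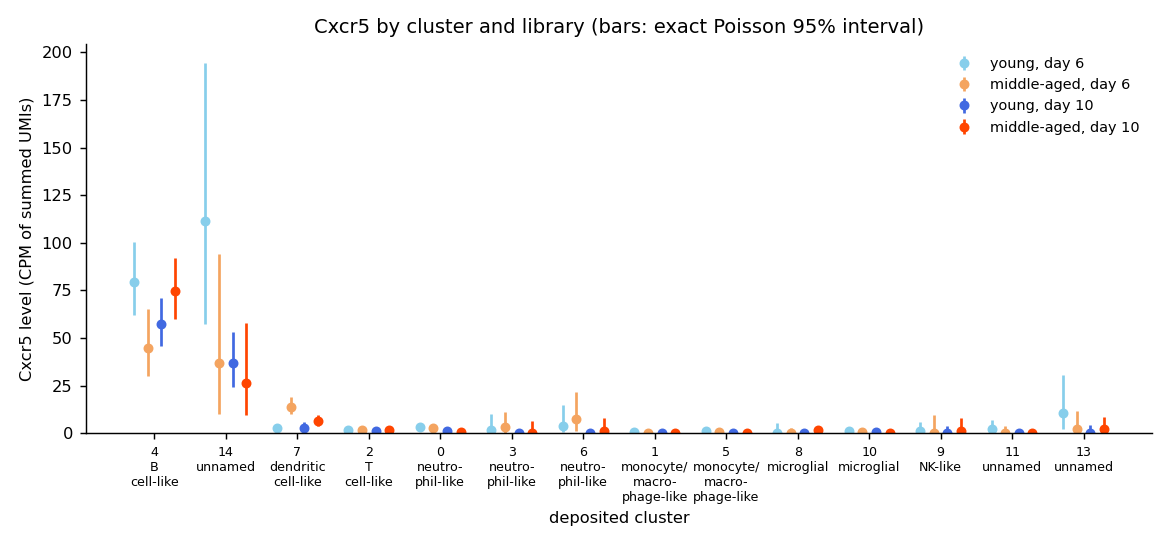
Level of Cxcr5 in CPM (vertical axis) in each deposited cluster (horizontal axis) and library (colour), with exact Poisson 95% intervals. Clusters 4 and 14 stand above the rest, and in cluster 4 the middle-aged library is the lower one on day 6, at 45.0 against 79.5 CPM. Clusters 12 and 15, with 160 and 59 cells, are not drawn.

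Per cell, Cxcr5 differed from Cxcl13. In cluster 4, 172 of 215 holding cells had 1 UMI and the most was 4, and no library owed over 10.7% of its sum to 1 cell. For Cxcl13 in cluster 10, 13 of 40 holding cells had 1 UMI and the most was 37.

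Dendritic cell-like cells with Cxcr5 were more frequent in the older mice on day 6. Cluster 7 had 20 and 41 UMIs on day 6, at 3.003 and 13.9 CPM, a log2 ratio of 2.21 (1.41 to 3.06). On day 10 it had 5 and 19 UMIs, at 2.66 and 6.29 CPM (1.24, -0.23 to 3.02). The 70 holding cells had dendritic cell markers, which include Ccr7 and Ccl22, at 7023 CPM against 1711 CPM in the other 1362 cells.

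Over all cells Cxcr5 had 169, 142, 162 and 171 UMIs in young and middle-aged mice on day 6 and on day 10. By age the log2 ratios were -0.33 (-0.66 to 0.002) and 0.15 (-0.16 to 0.47). The ratios of its ligand over all cells were 2.82 and 3.103. Without cells of mixed lineage, which were 54.0% to 75.6% of all cells, both ratios of Cxcr5 turned, to 0.25 (-0.31 to 0.82) on day 6 and -1.23 (-1.85 to -0.62) on day 10.

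Across 52 groups of cluster and library with 50 or more cells, the genes whose log2(CPM + 1) was most like that of Cxcl13 were Mlph (Pearson r 0.88), Naalad2 (0.87), 2610528A11Rik (0.86), Serping1 (0.85) and Speg (0.85). Mlph was highest in cluster 10 of the middle-aged day 10 library, at 21.9 CPM, whereas Cxcl13 was highest in cluster 8 of that library. For Cxcr5 they were Rab30 (0.90), Cacna1e (0.88), Cldn10 (0.87), H2-Eb2 (0.86) and Chst3 (0.85), each highest in cluster 4. The groups share libraries and differ in depth, so these values describe the data and carry no test.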

How the data were processed

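The deposited single-cell table gives UMI counts of each gene in each cell, as counted and not normalized. The authors counted reads with Cell Ranger 3.1.0 on mm10, removed cells by number of genes, depth, mitochondrial and ribosomal reads, integrated the libraries and clustered the cells. No doublet removal is stated and no caller was run here, since leaving out cells of mixed lineage was tried instead. The bulk values are raw read counts that the authors made with HISAT2 and featureCounts without strand.

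The members and lists were chosen with earlier results of these data known. UMIs were summed by cluster and library. Ratios used total UMIs, and intervals were exact binomial or Poisson. Depths were equalized by thinning to 2000 UMIs. Named are Cxcl13 and Cxcr5, all lymphoid chemokine and follicular helper genes, the 3 genes of each other list with the largest ratio in cluster 10 on day 6, the 10 highest and 5 lowest genes of cells with Cxcl13 (50 or more UMIs, 10 or more cells), and the 5 most alike genes. Any further gene was named after its values were seen. Positions are from GENCODE on GRCm38.

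Alternatives were TMM scaling, other totals, minima, thresholds, depth limits, a prior count of 5, the mean over cells, and leaving out top or mixed cells. Those with microglia genes and without the 1 top cell were chosen after seeing the data. Python 3.11.15 with numpy 2.4.6, scipy 1.17.1, pandas 2.3.3 and matplotlib 3.10.9 was used, and R 4.3.3 with edgeR 4.0.16 for TMM factors only. The ratios were tested on simulated data of the same depth. The simulated counts held counting error only, which the intervals assume, and not the uneven spread of Cxcl13 over cells. They therefore do not show how the intervals behave for Cxcl13.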

Additional observations from a re-analysis of the deposited data

Results flagged for a closer look

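The age difference of Cxcr5 had opposite signs on the 2 days. In the B cell-like cluster 4 the middle-aged level, relative to the young one on the log2 scale, was -0.82 on day 6 and 0.38 on day 10. Over all cells it was -0.33 on day 6 and 0.15 on day 10, and without cells of mixed lineage both signs turned, to 0.25 and -1.23. Each day has 1 library per age, so the difference between days was not tested.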

How the results depend on the processing

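With 1 library per group, intervals cover counting error only, and 1 cell can hold much of a sum. No paired analysis was possible because each group has 1 library and no result comes from a test. Of the values that answer a comparison, 102 stayed within the counting interval of the reported one (counts of genes, within 1.5 times) and 35 did not. That interval is wide on day 6, where Cxcl13 in cluster 10 fell from 5.57 to 3.19 with a prior count of 5 and to 4.12 without cells of mixed lineage (33 to 9 middle-aged UMIs), and in cluster 8 from 1.32 to 0.59 and 0.82. Every alternative with a value left Cxcl13 higher in middle-aged cells of clusters 10 and 8. The gene was chosen for that direction in these same counts, so this is a description and no support for it. In cluster 8 on day 6 the intervals of the alternatives spanned 0, as with the prior count (-0.49 to 1.78) and without mixed cells (-1.24 to 3.37). Log2 ratios of Cxcl13 on day 10 in cluster 10 were 6.05 without the 5 top cells of each library and 4.12 without the 1 top cell. They were 6.07 without cells of mixed lineage and 4.18 as a mean over cells. The ratios of 6.05 (3.51 to 11.37) and 6.07 (3.57 to 11.39) rest on 1 young UMI each, and 4.12 on 8. A larger ratio is therefore not shown. Mixed cells were 66.3% of young and 41.6% of middle-aged cluster 10 cells on day 10. In cluster 8 the ratios were 4.23 without the 5 top cells (3 young UMIs), 3.86 without mixed cells and 2.27 as a mean over cells. Over all cells the first 2 settings gave 3.80 and 4.33. Without its top cells the young library was at 0 in cluster 10 (5 or 1 cells) and cluster 8 (5 cells) on day 6, so no ratio exists. Leaving out mixed cells removed 54.0% to 75.6% of all cells, and Cxcr5 over all cells was then 0.25 on day 6 and -1.23 on day 10, and -0.21 on day 10 as a mean over cells. Shares with Cxcl13 at 2 or more UMIs were 0% (young, day 6) in cluster 10 and 0.402%, 0.824% and 2.71% (young and middle-aged day 6, middle-aged day 10) in cluster 8. Thinned they were 0%, 0.570% and 4.24% (young day 6, young day 10, middle-aged day 10) in cluster 10 and 0% (young day 6) in cluster 8. Shares of cluster 4 with Cxcr5 were 13.5% and 7.41% thinned (day 6), and 4.41%, 2.72%, 1.84% and 4.44% at 2 or more UMIs. Called list genes were 10, 3, 7, 4 and 14 (cluster 10 and cluster 8 by day, bulk). At a minimum of 20 they were 17, 8, 16 and 13 in the 4 single-cell comparisons, and at 50 cluster 10 had 5 on day 10. Genes apart 2-fold in cells with Cxcl13 were 5 in cluster 10 (2 thinned, 9 at 2 or more UMIs) and 3 in cluster 8 (8 at 2 or more UMIs, 6 without mixed cells). Thinning turned Apoc2 (-0.60), Lyz2 (-0.52), Anxa5 (-1.93) and Spp1 (-1.39). The cause was not tested.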
